A study of Mus musculus with 12 samples.

Results

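The genes described here encode 10 proteins of the Polycomb system and of the enzymes that remove its mark: the histone methyltransferases Ezh1 and Ezh2, their partners Eed and Suz12, the accessory subunit Jarid2, the PRC1 subunits Rnf2, Bmi1, Phc1 and Phc3, and the histone demethylase Kdm6b. They were taken by symbol from the deposited count table, in which all 10 were found among 23079 genes, and all 10 passed the filter on low counts that left 14732 genes for testing. Each had at least 171 reads in every library and at most 8115. Polycomb repressive complex 2 (PRC2) methylates lysine 27 of histone H3, and Polycomb repressive complex 1 (PRC1) binds the methylated histone through its Cbx subunits and ubiquitinates histone H2A, which together keep developmental genes silent. The Hox clusters are the classical targets of this silencing, and the demethylases Kdm6a and Kdm6b remove the mark. In the mouse, Ezh2 is known to be needed in migrating precerebellar neurons, including those of the pontine nucleus, for their correct positions.

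The samples were neurons of the pontine nucleus, which passes information from the cerebral cortex on to the cerebellum. They came from mouse embryos of the outbred strain CD-1 at stage E18.5, shortly before birth. Neurons carrying a genetic label were dissected, dissociated and sorted at 2000 cells per replicate, and RNA of 1000 cell equivalents was amplified before sequencing. The series design names 6 Math1tdTomato samples as references, Math1 being another name of Atoh1, a transcription factor of the rhombic lip progenitors from which pontine neurons come. The conditions were Hoxa5tdTomato (n = 3), named for the Hox gene Hoxa5 and a red fluorescent protein, and Math1Hoxa5-IRES-GFP (n = 3), whose count columns name a Cag promoter and an lsl (lox-stop-lox) Hoxa5 allele. The count columns of Hoxa5tdTomato name Hoxa5 and cre, and 3 of the reference columns name Math1 and creErt2. The sample labels do not describe the alleles, the driver of each reporter or any induction further, give no sex, and do not say whether samples came from separate litters or pools, so p-values measure the spread between these samples. The column names split the references into 3 that name creErt2 and 3 that name tdT. From their shared words and depths the former were set beside Hoxa5tdTomato (set 1) and the latter beside Math1Hoxa5-IRES-GFP (set 2). No label states this pairing, and values within a set rest on it.

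The libraries of set 1 held 9973484 to 13302076 reads in genes and those of set 2 held 22355961 to 29820776, which means that effects of depth and of set cannot be told apart. All 13 markers of pontine and glutamatergic neurons were detected in each group, with a summed level of 11473 to 14676 CPM (reads of a gene relative to the TMM-scaled library size) in the references, 9246 to 9605 CPM in Hoxa5tdTomato and 12088 to 14691 CPM in Math1Hoxa5-IRES-GFP. Hoxa5, the gene that checks the labels, stood at 119 to 222 CPM in Hoxa5tdTomato and at 4.35 to 32.2 CPM in the references. In the libraries labelled Math1Hoxa5-IRES-GFP it stood at 9.73, 16.8 and 82.0 CPM, so that replicates 1 and 2 lay within the range of the references and only replicate 3 lay above it. Whether reads of the driven allele were counted under Hoxa5 is not given in the sources used here, which limits what the gene can check for this label. Directions given for this group are therefore those of libraries that carry the label. Replicate 3 of that group also stood apart in having 13074 genes with a count. The other libraries of set 2 had 14779 to 15339, and those of set 1 had 15289 to 16290. The differences that replicate 3 moved most are given with and without it. In sorted bulk samples, fewer cells of a type and less RNA per cell cannot be told apart.

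Per length, the 6 references ranked the 10 genes from Phc1 at 51.7 ± 9.27 CPM per kilobase (SD, n = 6) to Ezh1 at 6.84 ± 1.95 CPM per kilobase. Ezh2 stood second at 46.3 ± 10.2 CPM per kilobase, and Rnf2 came next at 34.3 ± 5.74 CPM per kilobase. Suz12 at 26.99 ± 2.59, Jarid2 at 24.1 ± 3.71, Phc3 at 17.9 ± 2.01 and Kdm6b at 16.0 ± 1.36 CPM per kilobase followed. Bmi1 at 14.1 ± 4.46 and Eed at 10.8 ± 4.59 CPM per kilobase came just above Ezh1. No pair of neighbours in this order kept it in every library: Phc1 was above Ezh2 in 7 of 12 libraries, Jarid2 above Phc3 in 10 of 12, and the other neighbouring pairs held in 8 or 9. The ends of the order were far apart, with the lowest reference value of Phc1, 41.6 CPM per kilobase, above the highest of Ezh1, 9.19 CPM per kilobase.

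**Figure D1:**
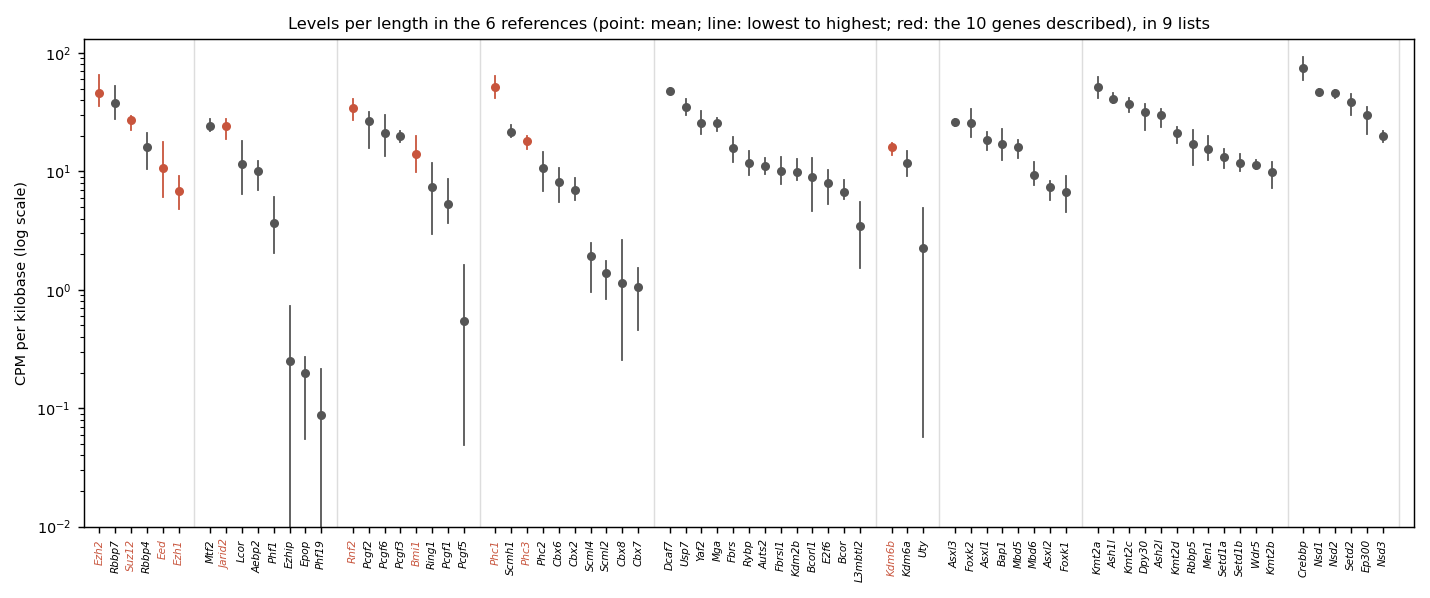
Levels per length (CPM per kilobase, log axis) in the 6 Math1tdTomato references for genes of the Polycomb system and of opposing systems, with grey lines parting the 9 lists; points are means, lines run from the lowest to the highest reference library, a line that reaches the lower axis starts at a library without a count, and red marks the 10 genes described. Phc1 and Ezh2 lead their lists, at 51.7 and 46.3 CPM per kilobase, while Ezh1 closes the PRC2 core at 6.84.

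Set beside their paralogs, the genes described were mostly, but not always, the more abundant copy. Among the RING subunits of PRC1, which ubiquitinate histone H2A, Rnf2 stood at 34.3 ± 5.74 CPM per kilobase and Ring1 at 7.42 ± 3.87. Among the PCGF partners that set the type of PRC1, Bmi1 (Pcgf4) at 14.1 ± 4.46 CPM per kilobase was below Pcgf2 at 26.8 ± 6.09. Phc1 and Phc3, the polyhomeotic subunits that join PRC1 complexes to each other, stood above Phc2 at 10.8 ± 2.54 CPM per kilobase. Of the Cbx genes, whose proteins read the methyl mark, Cbx6 stood at 8.13 ± 1.75, Cbx2 at 6.96 ± 1.29, Cbx8 at 1.15 ± 1.06 and Cbx7 at 1.06 ± 0.43 CPM per kilobase. The histone chaperones of PRC2, Rbbp7 and Rbbp4, stood at 37.8 ± 9.20 and 16.1 ± 4.47 CPM per kilobase. Kdm6b exceeded its paralog Kdm6a, at 11.8 ± 2.04 CPM per kilobase, in each of the 6 references. Errors are SDs over 6 references, and how reads from near-identical stretches of paralogs were counted is not given in the sources used here.

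Promoters were read for 9 of the 10 genes from RefSeq (GRCm38.p6), as the 250 bases before the start. The windows of Suz12, Bmi1 and Phc1 are shown because they span the range of CpG content among these genes, CpG islands being a feature of sequence that PRC2 and variant PRC1 are known to occupy in mammals, and because no other gene is annotated within them. CpG pairs are in capitals. The windows are chr11:79992856-79993105 (plus strand) for Suz12, chr2:18676768-18677017 (plus strand) for Bmi1 and chr6:122340228-122340477 (minus strand) for Phc1.
Suz12: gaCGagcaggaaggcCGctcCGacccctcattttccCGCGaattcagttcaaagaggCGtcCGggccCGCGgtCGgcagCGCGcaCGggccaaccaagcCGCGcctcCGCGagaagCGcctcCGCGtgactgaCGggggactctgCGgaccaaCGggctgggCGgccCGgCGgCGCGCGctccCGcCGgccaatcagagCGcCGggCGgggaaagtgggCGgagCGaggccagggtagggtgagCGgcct
Bmi1: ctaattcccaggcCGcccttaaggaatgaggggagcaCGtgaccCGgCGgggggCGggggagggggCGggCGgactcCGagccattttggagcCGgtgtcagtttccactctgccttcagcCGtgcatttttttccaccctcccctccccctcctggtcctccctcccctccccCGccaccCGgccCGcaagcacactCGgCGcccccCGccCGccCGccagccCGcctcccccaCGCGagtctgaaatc
Phc1: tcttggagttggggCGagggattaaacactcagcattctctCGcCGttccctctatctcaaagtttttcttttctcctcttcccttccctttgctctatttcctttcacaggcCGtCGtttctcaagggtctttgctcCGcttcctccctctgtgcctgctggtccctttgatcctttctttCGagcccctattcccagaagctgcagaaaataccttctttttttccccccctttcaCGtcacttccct
Suz12 held 37 CpG pairs, more than 97.8% of 32851 promoters, whose median was 6. Bmi1 held 21 and Phc1 held 8. The other windows held 12 (Eed and Phc3) to 23 (Ezh2 and the first start of Jarid2), and Ezh1 held 14. The letters TTTCCCGC, TTTGGCGC, TTTCGCGC and TTTGCCGC, forms of the word bound by E2F factors, were searched on both strands. They were found in 1 of the 10 windows (Suz12, TTTCCCGC, 219 bases upstream) and in 1.86% of all promoters. GGGCGG, the GC box, was in 6 of the 10 windows and in 32.7% of promoters, and CCAAT was in 3 of the 10 and in 33.8%. A match is a description of letters only.

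**Figure D2:**
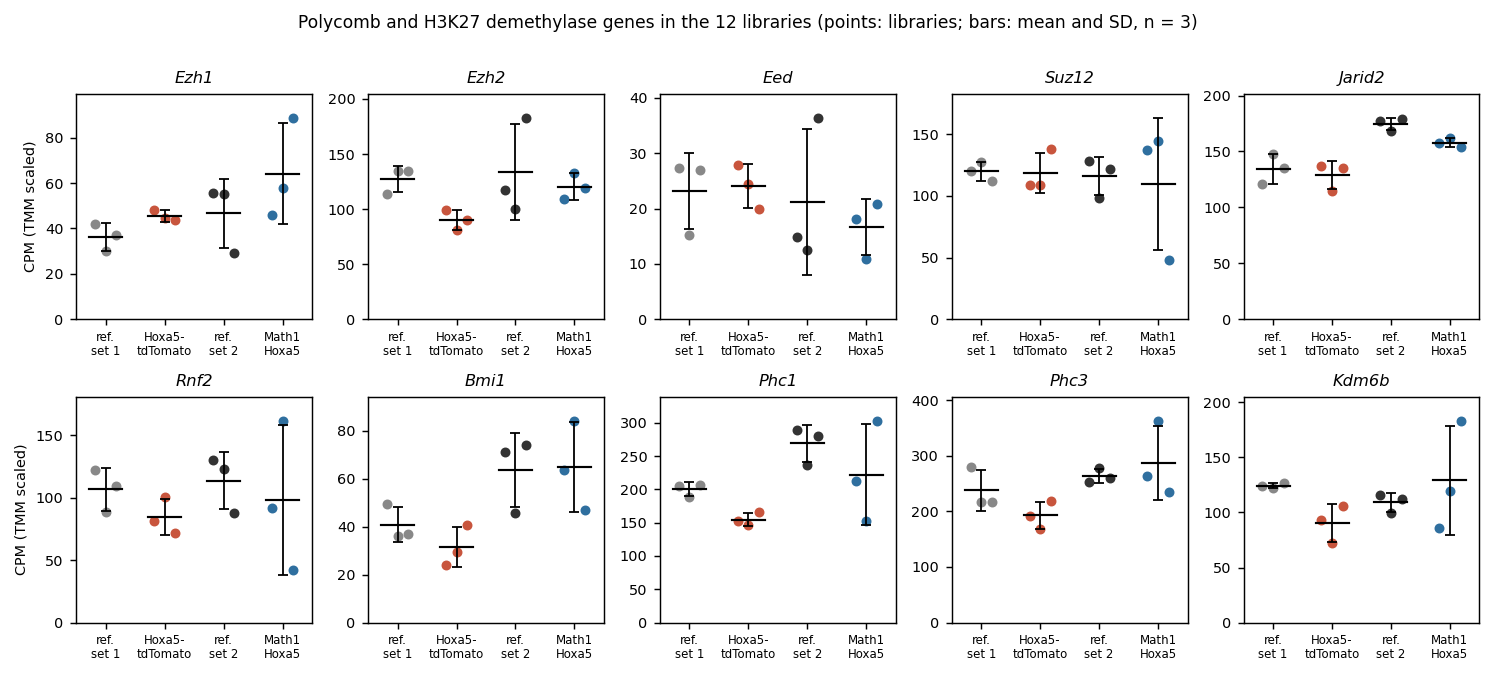
CPM (TMM scaled, linear axes that start at 0 and differ between panels) of the 10 genes in each of the 12 libraries, by column-name group; points are libraries in replicate order and bars are the mean and SD (n = 3). Phc1 at 146 to 166 CPM and Ezh2 at 81.0 to 99.5 CPM in Hoxa5tdTomato lie below all 6 references, and the Math1Hoxa5-IRES-GFP libraries spread widely for Suz12, Rnf2 and Kdm6b.

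Hoxa5tdTomato was compared with the 6 references to ask how cells sorted under a Hoxa5 label differ from those sorted under a Math1 label. None of the 10 genes passed edgeR's quasi-likelihood test with Benjamini-Hochberg adjustment over 14732 genes, against 1.73% of all genes tested (255 genes). At an unadjusted p under 0.05 there were 4 of the 10 (Bmi1, Phc1, Ezh2 and Phc3), against 14.6% of all genes, and DESeq2 called none of the 10. The log2 differences of 7 of the 10 were below 0, with a median of -0.37 where the median of all genes was 0.00. Phc1 and Ezh2 lay below all 6 references, 2 of 10 where 6.93% of all genes did so. Leaving out a single library moved the count of all genes called between 35 (without Hoxa5tdTomato replicate 2) and 728 (without Math1Hoxa5-IRES-GFP replicate 3).

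Among the catalytic subunits of PRC2, Ezh2 carries the stronger methyltransferase activity and is the form of dividing cells, while Ezh1 is known for its persistence in neurons and other cells that no longer divide. Ezh2 stood at 99.5, 81.0 and 89.8 CPM in Hoxa5tdTomato. The references of set 1 held 114, 134 and 135 CPM, and those of set 2 held 118, 100.3 and 183 CPM. Every Hoxa5tdTomato library was thus below every reference, although the closest pair, 99.5 and 100.3 CPM, nearly met. The log2 difference was -0.54 ± 0.19 (SE; 95% interval -0.94 to -0.14; adjusted p = 0.176, edgeR), and -0.50 ± 0.21 within set 1 (adjusted p = 0.468). With only the 6 libraries of set 1 in the fit it was -0.48 and passed the threshold narrowly (adjusted p = 0.04997, edgeR), where adjusted p over the 20 alternatives ran from that value to 0.569. The interval does not reach a 2-fold decrease. Ezh2 lies over the long non-coding RNA gene F830010H11Rik, and since the strand setting of the counting is not given, reads from their overlap cannot be told apart.

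Ezh1 overlapped the references in the same libraries. It stood at 48.3, 44.4 and 43.7 CPM in Hoxa5tdTomato, where the references held 42.2, 30.0 and 36.9 CPM in set 1 and 55.8, 55.2 and 29.1 CPM in set 2. Each Hoxa5tdTomato value was above the 3 set 1 references and within the range of set 2, and the log2 difference was 0.13 ± 0.27 (95% interval -0.43 to 0.69; adjusted p = 0.893, edgeR). In the libraries labelled Math1Hoxa5-IRES-GFP, Ezh1 stood at 45.7, 57.7 and 88.7 CPM, a log2 difference of 0.62 ± 0.26 from the 6 references (95% interval 0.07 to 1.18; adjusted p = 0.236). It was 0.46 ± 0.30 within set 2 and 0.32 without replicate 3, the library with the highest value. Ezh2 held 109, 133 and 119 CPM there, inside the range of the references.

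The ratio of Ezh1 to Ezh2 was compared library by library, since it does not depend on scaling between libraries. Per base of length, the log2 ratio was -2.15, -1.97 and -2.14 in Hoxa5tdTomato, a mean of -2.09 ± 0.10 (SD, n = 3). In the references it was -2.78 ± 0.68 (n = 6), with -2.54, -3.26 and -2.97 in set 1 and -2.18, -1.97 and -3.76 in set 2. In the libraries labelled Math1Hoxa5-IRES-GFP it was -2.36, -2.31 and -1.53, a mean of -2.07 ± 0.47 (n = 3). In all 12 libraries Ezh2 was therefore the more abundant, with Ezh1 at between 0.0739 and 0.347 of its level. The differences from the references were 0.69 for Hoxa5tdTomato (exact two-sided permutation test over 84 splits, p = 0.119) and 0.71 for the Math1Hoxa5-IRES-GFP label (p = 0.167), with an adjusted p of 0.333 for both over the 4 ratio tests made. Within set 1 the groups did not overlap and the difference was 0.84, with an exact permutation p of 0.1, the smallest that the 20 splits of 3 against 3 allow. Without set 2 reference replicate 2, the Hoxa5tdTomato difference was 0.86 with an unadjusted exact permutation p of 0.0357. That library held the highest of the reference ratios, and without it the groups did not overlap. The p was therefore the smallest that the remaining splits allow.

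**Figure D3:**
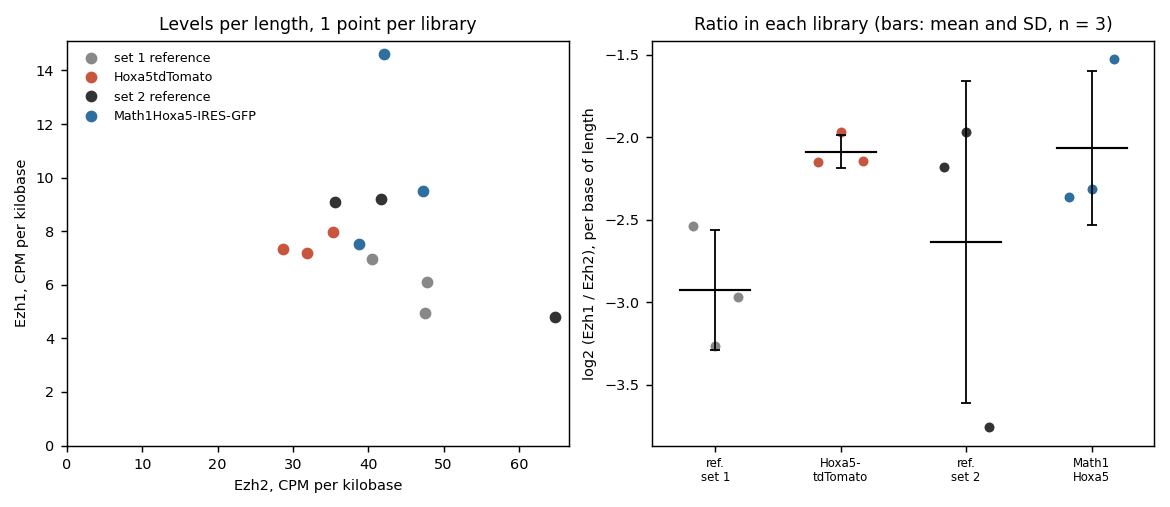
Left, Ezh1 against Ezh2 in CPM per kilobase, 1 point per library; right, the log2 ratio of Ezh1 to Ezh2 per base of length by group, with the mean and SD (n = 3). The 3 Hoxa5tdTomato libraries lie close together, at -2.15 to -1.97, while the set 2 references run from -3.76 to -1.97.

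The other core subunits, Eed and Suz12, overlapped between the groups in each comparison. Eed, which binds the methylated histone and stimulates the enzyme, was the least counted of the 10 and the most scattered among the references, from 12.5 to 36.4 CPM. It held 27.8, 24.4 and 19.9 CPM in Hoxa5tdTomato and 18.1, 10.97 and 20.8 CPM in the libraries labelled Math1Hoxa5-IRES-GFP. Its log2 differences from the references were 0.12 ± 0.37 (adjusted p = 0.937, edgeR) and -0.42 ± 0.38 (adjusted p = 0.620), with intervals from -0.66 to 0.89 and from -1.21 to 0.38. Without replicate 3 the latter difference was -0.61.

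Suz12, the scaffold that holds PRC2 together, varied little among the references, from 98.4 to 128 CPM. Hoxa5tdTomato held 109, 109 and 138 CPM, a log2 difference of 0.01 ± 0.25 (95% interval -0.53 to 0.54; adjusted p = 0.996, edgeR). The libraries labelled Math1Hoxa5-IRES-GFP held 137, 144 and 48.4 CPM: replicates 1 and 2 were above every reference and replicate 3 was the lowest of all 12. The difference was -0.10 with all 3 (adjusted p = 0.879) and 0.25 without replicate 3 (adjusted p = 0.510).

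Jarid2, which helps PRC2 to reach its targets, was lower in set 1 than in set 2, among the references and between the conditions. Hoxa5tdTomato differed from the Math1Hoxa5-IRES-GFP label by a log2 of -0.29 ± 0.18 (adjusted p = 0.371, edgeR), also without overlap. The set 1 references held 121, 148 and 135 CPM and the set 2 references 177, 169 and 179 CPM, without overlap, with a log2 difference of -0.38 ± 0.15 (95% interval -0.69 to -0.06; adjusted p = 0.276, edgeR). Hoxa5tdTomato held 137, 115 and 136 CPM and the other condition 158, 162 and 154 CPM, so each stood near the references of its own set. Against them, the differences were -0.06 ± 0.15 in set 1 and -0.15 ± 0.15 in set 2. Against all 6 references they were -0.26 ± 0.16 (adjusted p = 0.501) and 0.03 ± 0.16 (adjusted p = 0.948), and the latter became -0.09 when library size was the only scaling.

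Against all 6 references, the PRC1 genes Bmi1 and Phc1 held the largest differences of the 10 in Hoxa5tdTomato; against the set 1 references those of Ezh2 and Kdm6b were larger. Phc1 stood at 152, 146 and 166 CPM in Hoxa5tdTomato, against 205, 189 and 207 CPM in the set 1 references and 289, 237 and 281 CPM in the set 2 references. Every Hoxa5tdTomato library was below every reference, and the set 1 references were below those of set 2. The log2 difference was -0.60 ± 0.20 from the 6 references (95% interval -1.03 to -0.18; adjusted p = 0.150, edgeR), and -0.37 ± 0.20 from those of set 1 (adjusted p = 0.644). Without Math1Hoxa5-IRES-GFP replicate 3, a library outside this comparison that shares the estimate of the spread, the difference was -0.60 with an adjusted p of 0.0451, where adjusted p over the 20 alternatives ran from 0.0451 to 0.644. The libraries labelled Math1Hoxa5-IRES-GFP held 212, 152 and 303 CPM, a wider range than the 6 references, and differed from them by -0.08 ± 0.20 (adjusted p = 0.881), or by -0.37 without replicate 3 and 0.14 without replicate 2.

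Bmi1, which pairs with Rnf2 in canonical PRC1 and is known for sustaining neural progenitors, was also lower in set 1 than in set 2, though its references overlapped. It stood at 24.2, 29.5 and 40.8 CPM in Hoxa5tdTomato, with 49.5, 36.2 and 37.0 CPM in the set 1 references and 71.1, 45.8 and 73.9 CPM in those of set 2. Hoxa5tdTomato overlapped the set 1 references and lay below those of set 2. The log2 difference from all 6 was -0.73 ± 0.29 (95% interval -1.35 to -0.12; adjusted p = 0.236, edgeR), and -0.38 ± 0.29 from set 1 alone. The difference between the reference sets was of the same order, at -0.64 ± 0.29 (adjusted p = 0.369).

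Phc3 and Rnf2 overlapped the references in both conditions. Phc3 held 191, 169 and 218 CPM in Hoxa5tdTomato and 216 to 280 CPM in the references, a log2 difference of -0.38 ± 0.16 (95% interval -0.73 to -0.04; adjusted p = 0.282, edgeR). The libraries labelled Math1Hoxa5-IRES-GFP held 264, 363 and 235 CPM of Phc3 (difference 0.20 ± 0.16; adjusted p = 0.573; 0.32 without replicate 3). Rnf2, the main RING subunit, held 81.0, 101 and 71.9 CPM in Hoxa5tdTomato, where the references held 87.9 to 130 CPM, a difference of -0.38 ± 0.30 (adjusted p = 0.630). In the libraries labelled Math1Hoxa5-IRES-GFP it held 91.6, 162 and 41.8 CPM, both the highest and the lowest value of all 12, and the difference of -0.16 ± 0.29 became 0.20 without replicate 3.

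Kdm6b, the demethylase that opposes PRC2, was the steadiest of the 10 in the references, at 124, 122 and 127 CPM in set 1 and 116, 99.5 and 112 CPM in set 2. Hoxa5tdTomato held 92.9, 72.5 and 106 CPM, below every set 1 reference and overlapping set 2. The log2 difference was -0.37 ± 0.21 from all references (95% interval -0.81 to 0.08; adjusted p = 0.463, edgeR) and -0.46 ± 0.24 from set 1 (adjusted p = 0.626). The libraries labelled Math1Hoxa5-IRES-GFP held 85.5, 119 and 183 CPM, and the difference of 0.15 ± 0.21 (adjusted p = 0.764) was -0.19 without replicate 3 and 0.00 when library size was the only scaling. The test of the difference between the conditions' own-set effects gave -0.70 ± 0.33 for Kdm6b (95% interval -1.41 to 0.00; unadjusted p = 0.0514; adjusted p = 0.622, edgeR), the lowest of the 10 genes. No member and no gene of all 14732 passed that test with edgeR; at an unadjusted p under 0.05 it held none of the 10 and 1181 of all genes, and DESeq2 called 54 genes and none of the 10. The gene overlaps the long non-coding RNA gene Gm51903, and reads from that overlap cannot be told apart.

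The ratio of Kdm6b to Kdm6a, the X-linked demethylase of the same mark, was likewise compared within libraries. Its log2 value per length was 0.84, -0.23 and 0.16 in Hoxa5tdTomato, a mean of 0.26 ± 0.54 (SD, n = 3), and 0.45 ± 0.28 in the references (n = 6), a difference of -0.20 (exact two-sided permutation p = 0.476; adjusted p = 0.635). In the libraries labelled Math1Hoxa5-IRES-GFP it was -0.08, 0.08 and 1.72, a mean of 0.57 ± 1.00 (n = 3), with a difference of 0.12 (exact permutation p = 0.762), or -0.45 without replicate 3. Kdm6a was lowest in Hoxa5tdTomato replicate 1 (44.9 CPM) and in replicate 3 of the Math1Hoxa5-IRES-GFP label (47.9 CPM), the libraries with the highest ratio of their groups. Those libraries also had little Xist, at 4.36 and 10.9 CPM, as did set 2 reference replicate 2 at 9.56 CPM with Kdm6a at 69.9 CPM, whereas the other 9 libraries held at least 1570 CPM of Xist. The part of this difference between libraries in the ratio was not tested.

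**Figure D4:**
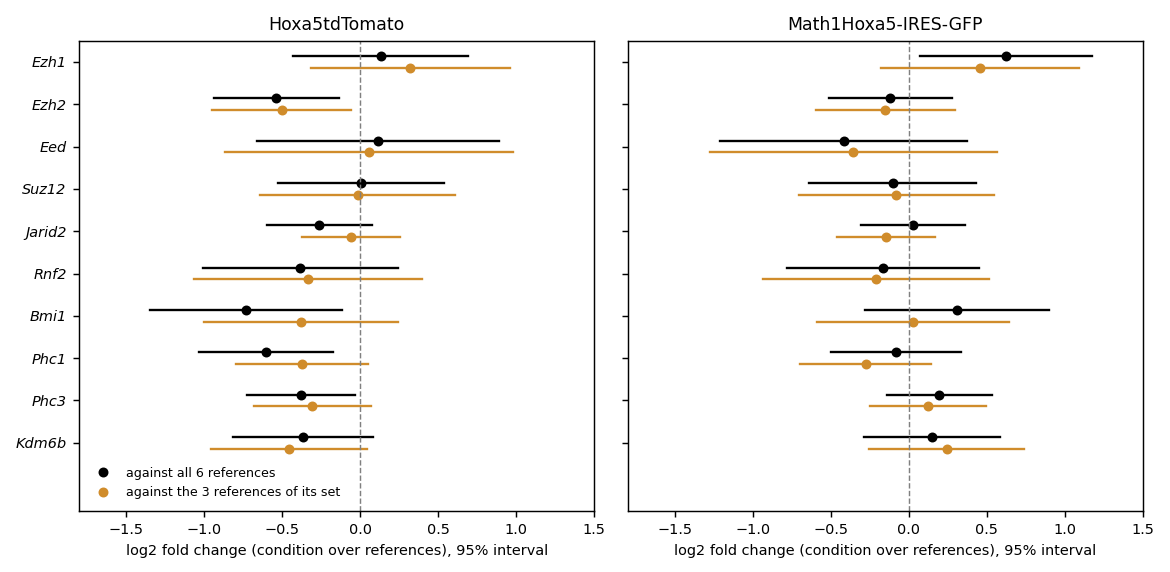
Log2 fold change of each gene with its 95% interval, for Hoxa5tdTomato (left) and Math1Hoxa5-IRES-GFP (right), against all 6 references (black) and against the 3 references of the same set (orange). Black intervals leave out 0 for Ezh2, Bmi1, Phc1 and Phc3 on the left and for Ezh1 on the right, and none of the adjusted p-values passed the threshold.

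For the libraries labelled Math1Hoxa5-IRES-GFP against the 6 references, a comparison made to ask what Hoxa5 does when it is driven in the Math1 lineage, none of the 10 genes passed (edgeR), against 1.84% of all genes (271 genes). At an unadjusted p under 0.05 there was 1 of the 10, Ezh1, against 16.7% of all genes, and DESeq2 called none of the 10. The log2 differences were below 0 for 5 of the 10, with a median of -0.02. No member was above or below all 6 references in all 3 libraries, where 6.37% of all genes were. Within set 2 none passed either, against 0.862% of all genes, none had an unadjusted p under 0.05, against 13.7% of all genes, and DESeq2 again called none. Jarid2 lay below all 3 set 2 references, 1 of 10 where 6.46% of all genes did. Within set 1, none of the 10 passed for Hoxa5tdTomato, against 0.557% of all genes, 1 (Ezh2) had an unadjusted p under 0.05, against 8.91% of all genes, and DESeq2 called none. Ezh2, Kdm6b and Phc1 lay below all 3 set 1 references and Ezh1 above them, 3 and 1 of 10 where 12.7% of all genes did so in either direction taken alone.

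The highest and lowest values of the genes described lay in some of the libraries. Math1Hoxa5-IRES-GFP replicate 3 held the highest value of all 12 libraries for Ezh1, Kdm6b and Phc1 and the lowest for Rnf2 and Suz12. Replicate 2 of the same group held the highest for Bmi1, Phc3, Rnf2 and Suz12 and the lowest for Eed. Hoxa5tdTomato replicate 2 held the lowest value of Ezh2, Jarid2, Kdm6b, Phc1 and Phc3. Set 2 reference replicate 3 held the highest value of Eed, Ezh2 and Jarid2 and the lowest of Ezh1. Hoxa5tdTomato replicate 1 held the lowest value of Bmi1. The set 1 references held none of the 20 extremes. The same was true of Hoxa5tdTomato replicate 3, set 2 reference replicates 1 and 2 and Math1Hoxa5-IRES-GFP replicate 1. Whether the libraries with extremes here also hold more of them over all genes was not tested.

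Between the conditions, again none of the 10 genes passed (edgeR), against 3.35% of all genes (493 genes, or 0 to 1157 when a single library was left out: 0 without Hoxa5tdTomato replicate 1, 1 without either of its other replicates, 1157 without Math1Hoxa5-IRES-GFP replicate 1). At an unadjusted p under 0.05 there were 4 of the 10, against 22.1% of all genes. Hoxa5tdTomato was below the other condition in 8 of the 10 log2 differences, with a median of -0.46. Bmi1, Ezh2, Jarid2 and Phc3 did not overlap, 4 of 10 where 12.9% of all genes were lower without overlap. These conditions also belong to different sets, and 7 of the 10 genes were lower in the references of set 1 than in those of set 2, so condition and set cannot be told apart here.

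Bmi1 had the largest of these differences, -1.04 ± 0.33 (95% interval -1.74 to -0.35; adjusted p = 0.0790, edgeR). DESeq2 gave -1.02 with an adjusted p of 0.0343, where adjusted p over the 17 alternatives ran from 0.0343 to 0.254. The reference sets themselves differed in Bmi1 by -0.64 ± 0.29 (adjusted p = 0.369, edgeR). Its difference of own-set effects was -0.41 ± 0.41 (adjusted p = 0.850, edgeR). Between the conditions, Phc3 differed by -0.58 ± 0.19 (adjusted p = 0.0832), Phc1 by -0.52 ± 0.23 (adjusted p = 0.185) and Kdm6b by -0.52 ± 0.24 (adjusted p = 0.221). Rnf2, at -0.22 ± 0.34 (adjusted p = 0.755), turned to 0.05 when library size was the only scaling, which moved the median of all genes by 0.28 in this comparison.

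The references of the sets were compared as a background without a condition. None of the 10 genes passed (edgeR), against 1.34% of all genes (197 genes, or 40 without set 1 reference replicate 2 and 784 without Math1Hoxa5-IRES-GFP replicate 3), and DESeq2 called none of the 10. At an unadjusted p under 0.05 there were 3 of the 10 (Bmi1, Jarid2 and Phc1, each lower in set 1), against 12.9% of all genes. Phc1 and Jarid2 were lower in set 1 without overlap, 2 of 10 where 12% of all genes were, and Kdm6b was higher, 1 of 10 where 12.6% of all genes were.

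The wider Polycomb and opposing systems were described through 65 further genes, all tested. For Hoxa5tdTomato against the references, 46 of the 65 log2 differences were below 0, with a median of -0.24, and 1 fell past the threshold and none rose (edgeR, with 16 at an unadjusted p under 0.05 and 4 called by DESeq2). For the libraries labelled Math1Hoxa5-IRES-GFP none rose or fell (edgeR, with 13 at an unadjusted p under 0.05 and 2 called by DESeq2), 29 were below 0, and the median was 0.05. Between the conditions 3 of the 65 fell in Hoxa5tdTomato and none rose (edgeR, where 3.35% of all genes passed, with 22 of the 65 at an unadjusted p under 0.05 and 6 called by DESeq2). Of these differences 45 were below 0, with a median of -0.28. The medians over all genes were 0.00, 0.00 and 0.02. Of all genes, 1.73%, 1.84% and 3.35% passed in these comparisons with edgeR, and DESeq2 called 593, 831 and 1484. At an unadjusted p under 0.05 (edgeR) there were 14.6%, 16.7% and 22.1% of all genes. Within the sets none of the 65 passed with edgeR, with 8 at an unadjusted p under 0.05 in set 1 and 7 in set 2, and DESeq2 called 0 and 1. Of all genes, 8.91% in set 1 and 13.7% in set 2 had an unadjusted p under 0.05 (edgeR).

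By list, with the genes described here included, the PRC2 core had a median of 0.06 in Hoxa5tdTomato against the references, with 2 of 6 below 0, and the PRC2 accessory genes 0.03 with 4 of 8. The RING and PCGF genes had a median of -0.35 (5 of 8 below 0), the canonical PRC1 genes -0.14 (6 of 11) and the variant PRC1 genes -0.24 (10 of 13). The H2A deubiquitinase genes, which reverse the mark of PRC1, had -0.21 (7 of 8). The Trithorax and COMPASS genes, among them those of the complexes that place the opposing methyl mark on H3 lysine 4, had -0.34 (11 of 12). The genes of H3K27 acetylation and H3K36 methylation had -0.44 (6 of 6). The lowest of these medians was thus outside the Polycomb lists, and that of the PRC2 core lay near the median of all genes. Against the set 1 references alone the medians were -0.01 for the RING and PCGF genes (4 of 8 below 0), -0.03 for canonical PRC1 (6 of 11), -0.19 for variant PRC1 (11 of 13), -0.23 for Trithorax and COMPASS (12 of 12) and -0.30 for the acetylation and H3K36 genes (6 of 6). The references themselves differed between the sets, with a median of -0.57 for the RING and PCGF genes (7 of 8 lower in set 1), -0.15 for canonical PRC1 and -0.26 for the acetylation and H3K36 genes. In the libraries labelled Math1Hoxa5-IRES-GFP the medians of these 8 lists against all references lay between -0.12 and 0.14.

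Crebbp, an acetyltransferase of H3 lysine 27, was the single list gene past the threshold against the references. It stood at 317 to 372 CPM in Hoxa5tdTomato and at 447 to 701 CPM in the references, a log2 difference of -0.72 ± 0.17 (adjusted p = 0.0360, edgeR). Within set 1 it was -0.46 (adjusted p = 0.189), and it passed in 11 of 20 alternatives; leaving out any 1 Hoxa5tdTomato library or any 1 set 2 reference ended the call, with adjusted p from 0.0798 to 0.216. Between the conditions, Crebbp fell by 0.99 ± 0.19 (adjusted p = 0.0239), Dcaf7, a scaffold of variant PRC1, by 0.69 ± 0.16 (adjusted p = 0.0329), and Mga, a DNA-binding subunit of variant PRC1, by 0.62 ± 0.15 (adjusted p = 0.0431) in Hoxa5tdTomato. These calls held in 14, 11 and 5 of 17 alternatives, and each was lost when any 1 Hoxa5tdTomato library was left out, with adjusted p from 0.0792 to 0.168. The reference sets themselves differed in Crebbp by -0.49 ± 0.13 (adjusted p = 0.0918), and the difference of own-set effects was -0.50 for Crebbp (adjusted p = 0.574), -0.62 for Dcaf7 (adjusted p = 0.556) and -0.41 for Mga (adjusted p = 0.607). The Dcaf7 and Mga calls were also lost without replicate 2 or 3 of the Math1Hoxa5-IRES-GFP label, and that of Mga without set 1 reference replicate 3 or set 2 reference replicate 2 or 3. Of the paralogs, Kdm6a differed by -0.16 (adjusted p = 0.850), Ring1 by -0.67 (adjusted p = 0.598) and Pcgf2 by -0.32 (adjusted p = 0.579) in Hoxa5tdTomato against the references. Against the set 1 references alone they differed by -0.11 (Kdm6a), 0.07 (Ring1) and -0.09 (Pcgf2). Between the reference sets the differences were -0.09, -1.22 and -0.43, in the same order.

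Summed markers of vascular and meningeal cells were higher in the Hoxa5tdTomato group. The summed level of 14 endothelial markers, all 14 detected in both groups, was 145 to 260 CPM there and 3.64 to 36.8 CPM in the references. That of 10 pericyte markers was 118 to 239 CPM against 2.07 to 27.99 CPM, with 10 of 10 detected in Hoxa5tdTomato, 9 of 10 in the references and Anpep at 0 in the latter. That of 8 meningeal markers was 9.78 to 15.5 CPM against 0.772 to 3.99 CPM, also without overlap, with Dcn and Aldh1a2 at 0 in Hoxa5tdTomato. By gene, 3 of 12 endothelial, 3 of 9 pericyte and 0 of 3 meningeal markers tested rose against all references (edgeR, where 1.73% of all genes passed). Against the set 1 references 1, 0 and 0 rose, where 0.557% of all genes passed. None of these log2 differences was below 0 in either comparison. In the libraries labelled Math1Hoxa5-IRES-GFP the endothelial sum was 8.48 to 65.7 CPM and the pericyte sum 5.42 to 66.1 CPM. Sums of glial markers in Hoxa5tdTomato overlapped the references, at 728 to 1090 against 630 to 1019 CPM for astrocytes. They were 79.3 to 107 against 53.7 to 93.9 CPM for the oligodendrocyte lineage and 29.7 to 105 against 21.1 to 44.8 CPM for microglia. GABAergic and glycinergic neuron markers overlapped too, at 206 to 280 against 193 to 353 CPM. The 12 stress and early response genes, led by Klf6, summed to 168 to 191 CPM in Hoxa5tdTomato, 180 to 247 CPM in the libraries labelled Math1Hoxa5-IRES-GFP and 94.0 to 169 CPM in the references. Their part in the values of Phc1, Ezh2 and Bmi1 was not tested. The 14 markers of dividing cells, which as a class express Ezh2, summed to 109 to 137 CPM in Hoxa5tdTomato and 89.0 to 141 CPM in the references. These sums overlapped, while by gene the median log2 difference of the 14 was 0.67 from all references (9 of 14 above 0) and 0.51 from those of set 1 (10 of 14), with none past the threshold (edgeR).

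Hox genes, the classical targets of Polycomb silencing, are described here only beside these values. Of 39 Hox genes 14 were tested, and 5 rose in Hoxa5tdTomato against the references (edgeR, where 1.73% of all genes passed). They were Hoxa5, Hoxa4, Hoxb5, Hoxc4 and Hoxa7. Hoxa7 held 2.65 to 5.45 CPM in Hoxa5tdTomato and no count in any reference or Math1Hoxa5-IRES-GFP library. It therefore passed the filter on low counts only through the group where it was high. Hoxa5 is the gene that the label names. The calls of Hoxa5 and Hoxa7 were thus favoured by the label and the filter, and lend no support of their own. Against the set 1 references, where 0.557% of all genes passed, 3 of the 5 passed, while Hoxa5 (adjusted p = 0.0698, edgeR) and Hoxa7 (adjusted p = 0.151) did not. None passed for the Math1Hoxa5-IRES-GFP label (edgeR, where 1.84% of all genes passed). In that comparison 2 of the 14 had an unadjusted p under 0.05 (edgeR), against 16.7% of all genes. DESeq2 called 1 of the 14, and 831 of all genes.

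The 10 genes did not vary as a block. Over the 12 libraries, after the mean of each set was subtracted, the Pearson r of log2 CPM in the 45 pairs ran from -0.64 (Ezh1 and Ezh2) to 0.73 (Suz12 and Rnf2), with 26 positive, 19 negative and a median of 0.07. Pairs share their libraries, depth and scaling, and these correlations are a description. Over the same 12 libraries and 9395 genes of at least 10 CPM, the patterns most like Ezh2 were those of Rabl3 (r = 0.95), Rock1 (0.90) and Zfp672 (0.90). The nearest to Ezh1 were Slc25a36 (0.92), Riok1 (0.90) and Adss (0.89), and among those nearest to Kdm6b were Gltscr1 (0.94) and Mboat2 (0.94). None of these genes is a member of the lists above.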

How the data were processed

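RNA of sorted pontine neurons was amplified by SPIA (Ovation V2) and sequenced, per the labels' protocols. The authors deposited raw counts of reads per gene with gene lengths in bases. Base calling used bcl2fastq 1.8.4 and the build was mm10, per the submitters' processing notes; which aligner and counter made them, and whether strand was used, is not given in the sources used here. Library totals ran from 9973484 to 29820776. Columns were assigned to groups by the words in their names, since the reference columns could not be matched to single labels.

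From the counts, genes were kept with filterByExpr at a minimum count of 10, scaled by TMM, and tested by quasi-likelihood in edgeR 4.0.16 (glmQLFTest, R 4.3.3) on 3 group means over all 12 libraries, with Benjamini-Hochberg adjustment over 14732 genes and a threshold of 0.05. Values within a set, between the reference sets and for the difference of effects came from a fit of 4 column-name groups. The common dispersion was 0.312. Log2 changes are given with their SE or 95% interval. CPM per kilobase divides by the deposited length. Ratios used a pseudocount of 0.5 and exact permutation over libraries. Alternatives were RLE and library-size scaling, DESeq2 1.42.0, no filter, 1 set alone, thinned counts, a replicate block and leaving out each library. Symbols, positions and promoters came from RefSeq (GRCm38.p6), which matched 23008 of 23079 identifiers.

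The 10 genes and all lists were chosen with earlier results of these data known. Beyond the 10 genes, list genes were named where they passed in a main comparison, with the paralogs named for their levels, and marker genes by highest level or a level of 0. The 3 genes most like Ezh1, Ezh2 and Kdm6b by Pearson r, and Hoxa5 as the check of the labels, completed the rule; some genes that it names are not reported here.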

Additional observations from a re-analysis of the deposited data

How the results depend on the processing

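Of 675 values of single genes among the 10 under alternatives, 649 kept their direction and their side of the threshold, 23 changed sign and 3 passed the threshold: Ezh2 in Hoxa5tdTomato with only the 6 libraries of its set, Phc1 in Hoxa5tdTomato without Math1Hoxa5-IRES-GFP replicate 3, and Bmi1 between the conditions with DESeq2. So 1 of the 10 was called in each of these settings, where 980, 728 and 1484 of all genes tested were called. The causes of these shifts were not tested.

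The count of all genes called depended more on the method. For Hoxa5tdTomato against the references it was 980 with only its own set, 593 with DESeq2, 82 in the fit of 4 column-name groups and 72 with the replicate block. For the libraries labelled Math1Hoxa5-IRES-GFP it was 10 with only its own set, 831 with DESeq2, 127 in the fit of 4 groups and 77 with the replicate block. Between the conditions it was 148 with library size as the only scaling and 1484 with DESeq2. DESeq2 gave 574 between the reference sets and 54 for the difference of effects.

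Signs changed for values that in the main fits ran from -0.22 (Rnf2 between the conditions) to 0.20 (Phc3, Math1Hoxa5-IRES-GFP label). For Hoxa5tdTomato, Suz12 was -0.0161 in the fit of 4 groups and -0.0231 with the replicate block. For the Math1Hoxa5-IRES-GFP label, Jarid2 was -0.0891 under library size alone, -0.1356 with its own set only, -0.1459 in the fit of 4 groups and -0.1457 with the replicate block, and Kdm6b was -0.0032 under library size alone. Rnf2 between the conditions was 0.0491 under library size alone. That scaling moved the median of all genes by 0.16, -0.12 and 0.28 in the 3 main comparisons.

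Leaving out 1 library gave 35 to 728 genes for Hoxa5tdTomato against the references (0 to 1 of the 10), 190 to 575 for the Math1Hoxa5-IRES-GFP label, 0 to 1157 between the conditions, 40 to 784 between the reference sets and 0 to 3 for the difference of effects. For Hoxa5tdTomato, Eed ran from -0.0033 to 0.3353 and Suz12 from -0.1148 to 0.0633. For the other label, Phc1 ran from -0.366 to 0.1382, Ezh2 from -0.1907 to 0.0037, Jarid2 from -0.0318 to 0.0749, Rnf2 from -0.7218 to 0.2005, Kdm6b from -0.1884 to 0.3742, Phc3 from -0.003 to 0.322 and Suz12 from -0.3459 to 0.2548. Between the conditions, Rnf2 ran from -0.5846 to 0.356 and Suz12 from -0.2493 to 0.3713. The difference in the Ezh1 to Ezh2 ratio ran from 0.4977 to 0.8559 for Hoxa5tdTomato, and that of Kdm6b to Kdm6a from -0.4857 to 0.0478 for Hoxa5tdTomato and from -0.4522 to 0.4486 for the other label.

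Same-numbered libraries of a set did not deviate together (r from -0.028 to 0.049 over genes), and not every library correlated best with the one of its own number. The numbers were therefore not taken to pair samples, and the replicate block called none of the 10. Set 1 is the shallower set, and with 3 libraries per condition many intervals of the 10 genes span from a moderate decrease to a moderate increase.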
